A study of Mus musculus with 48 samples.

Results

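The genes described here are the mouse cytosolic ribosomal protein genes, chosen by name and biotype, as protein-coding genes called Rpl or Rps with a number, together with Rplp0, Rplp1, Rplp2 and Rpsa, leaving out the Rps6k kinases and names that mark a pseudogene. The rule found 86 of the 54532 genes of the count table. It took in 31 proteins of the small (40S) subunit, 43 of the large (60S) subunit and the 3 stalk proteins Rplp0, Rplp1 and Rplp2, which together make 77 core genes. It also took in 8 paralogs that resemble a core gene, and Rps19bp1, which is no structural ribosomal protein but binds the 40S protein Rps19 and the deacetylase Sirt1.

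RNA was sequenced from inguinal white adipose tissue (iWAT, the subcutaneous depot that the study calls sWAT) of C57BL/6 mice at 8 months of age. Ad-lib mice had food at all times and twice-a-night (TAN) mice had food in a pair of windows each night, and 4 libraries of each diet were made at each of 6 time points, 48 libraries in all. The study's methods give the mice as males, and nothing in the sources says whether each library came from one animal. The series calls the material the stromal vascular fraction and the study calls it whole sWAT. Adipocyte markers were abundant, with the sum of Adipoq, Plin1, Cidec, Lep and Fabp4 at 4017 to 43545 CPM (counts scaled to library size) in the 48 libraries. The study also reports Adipoq and Fabp4 in precursor cells of the stromal vascular fraction, so this sum does not settle which material was used. Total counts ran from 15636378 to 29913310 per ad-lib library and from 15685080 to 25440243 per TAN library. Times are those of the count table. Matched over 979 genes to a supplementary table of per-library values, each of the 48 libraries stood under the same diet and replicate number at a time 12 h away and 0 at the same time. The hour of the day is therefore uncertain, while the groups compared hold the same libraries either way.

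Ribosomal proteins of the 40S subunit line the path of the messenger RNA, those of the 60S subunit surround the peptide exit and the catalytic RNA, and the stalk recruits the elongation factors. In mammals their messenger RNAs share a pyrimidine tract at the 5′ end (the TOP motif), through which mTORC1 and LARP1 tie their translation to nutrients. Lymphocytes are known for a large share of ribosomal protein messages in their RNA, and inguinal fat holds a lymph node. The study's methods state that lymph nodes were left out when the stromal vascular fraction was isolated.

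The starts of the genes without overlap between diets at 8 p.m., and of Rps6 and Rps27, are printed to show where a pyrimidine tract is present and where it is not. Promoter sequences of RefSeq were matched by symbol for 66 of the 86 genes, using the first start listed for each, and each line holds 50 bases of GRCm38.p6, 25 on each side of the start, 5′ to 3′ on the strand of the gene. Capitals mark the longest run of at least 8 C or T bases, or the first of them where runs are equally long.
Rplp2 (7:141447626-141447675, plus strand): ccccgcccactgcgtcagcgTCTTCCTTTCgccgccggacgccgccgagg
Rps2 (17:24720038-24720087, plus strand): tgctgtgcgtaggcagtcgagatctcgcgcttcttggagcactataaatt
Rps6 (4:86857343-86857392, minus strand): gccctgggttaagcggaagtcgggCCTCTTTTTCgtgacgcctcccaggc
Rps27 (3:90213624-90213673, minus strand): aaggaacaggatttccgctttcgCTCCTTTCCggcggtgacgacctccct
Rps27l (9:66946061-66946110, plus strand): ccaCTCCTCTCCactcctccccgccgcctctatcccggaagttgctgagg
Rps19bp1 (15:80264282-80264331, minus strand): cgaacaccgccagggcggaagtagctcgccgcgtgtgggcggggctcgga
A run of at least 8 pyrimidines lay within these 50 bases in 30 of the 66 genes (45.5%), in 27 of the 57 core genes matched (47.4%), in 23.2% of 69 mitochondrial ribosomal protein genes and in 19.4% of all 27025 promoters of the table. The Ets-family core CGGAAG, or CTTCCG on the other strand, lay within the 300 bases from 250 before to 50 after the start in 44 of the 66 genes (66.7%), in 55.1% of the mitochondrial ribosomal protein genes and in 17.2% of all promoters. Rps6, Rps27 and Rplp2 have a pyrimidine run across the start, the marked run of Rps27l lies upstream of it and is followed by another, and the core gene Rps2 and Rps19bp1 have none in this window. These matches describe letters and not binding or use. The whole genes are annotated at 7:141447370-141451585 for Rplp2, 9:66946086-66949516 for Rps27l and 15:80260615-80264315 for Rps19bp1 in GRCm38.

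Of the 86 genes, 85 passed the filter on low counts and were tested among 19977 genes in all. The exception was the paralog Rpl10l, a gene of the testis, with 0 counts in all 48 libraries. Levels compared between genes are the authors' mean FPKM of a group (fragments scaled to gene length and library size), of which the median over the 12 groups is given. They were highest for the stalk protein gene Rplp1 at 2182 FPKM, followed by Rps3a1 at 1219, Rps15 at 996 and Rplp0 at 959, and the 77 core genes had a median of 269 FPKM with quartiles of 152 and 476. Rpl13a at 10.1, Rps10 at 2.18 and Rpl24 at 1.18 FPKM lay far below the other core genes, though each encodes a core protein, and these genes, like Rps3a1 and Rps15, are named after their values were seen. For Rps10 and Rpl17, near-identical rows that are named as pseudogenes held many of the counts. Rps10-ps2 had a mean of 193 CPM against 5.24 CPM on Rps10, and Rpl17-ps3 had 366 CPM against 245 CPM on Rpl17, so the values of these genes are uncertain.

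Together the 86 genes took 2.12% to 18.9% of the counts of a library, with a median of 4.80%. The largest shares were those of TAN at 8 p.m., with 18.0% and 18.9% in replicates 1 and 2, but 7.30% in replicate 3 and 3.31% in replicate 4. The ad-lib libraries of that time had 6.44%, 5.96%, 6.32% and 3.92%. Replicates 1 and 2 thus stand apart from all other libraries, and replicate 4 lies below every ad-lib library of 8 p.m. Elsewhere the highest shares were found in single ad-lib libraries, 11.5% in replicate 4 at 4 a.m., 10.4% in replicate 3 at 8 a.m. and 8.21% in replicate 2 at 12 p.m.

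**Figure D1:**
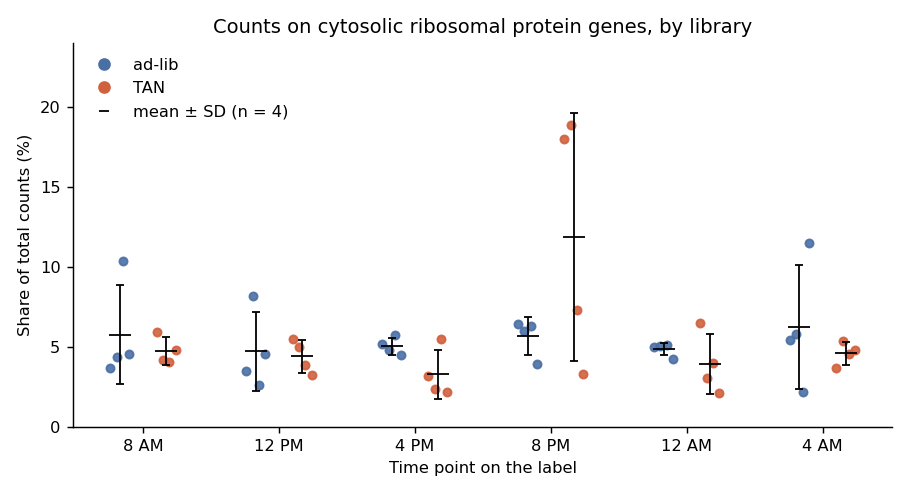
Share of the total counts (%) on the 86 ribosomal protein genes, by time point on the label, with a point for each library (4 per group) and the mean ± SD of each group. TAN replicates 1 and 2 at 8 p.m. lie at 18.0% and 18.9%, and the other 46 libraries lie between 2.12% and 11.5%.

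Markers of other cells varied with this share. The summed level of the 10 lymphocyte markers (B and T cell genes such as Cd79a, Ms4a1, Cd3e and Ccr7) ranged from 7.71 to 2317 CPM over the 48 libraries, and none of the 10 was at 0 throughout. At 8 p.m. it was 2150, 2317, 889 and 36.5 CPM in TAN replicates 1 to 4 and 1649, 1233, 1685 and 540 CPM in the ad-lib libraries. The summed adipocyte markers of the same TAN libraries were 6551, 4017, 26958 and 35646 CPM, so the 2 libraries with the largest ribosomal protein shares had the most lymphocyte and the least adipocyte marker expression of the 4. The ad-lib libraries named above with shares of 11.5%, 10.4% and 8.21% had 2132, 1926 and 1623 CPM of lymphocyte markers, but 2 ad-lib libraries of 8 p.m. with 1649 and 1685 CPM had shares of 6.44% and 6.32%. Markers of lymph node stroma and venules summed to 431, 361, 217 and 22.4 CPM in TAN replicates 1 to 4 at 8 p.m. In the ad-lib libraries of that time they summed to 735, 447, 643 and 170 CPM. All 3 endothelium markers were called lower in TAN mice at 8 p.m., with a median log2 fold change of -1.2 and sums of 156, 132, 227 and 210 CPM in TAN and 299 to 416 CPM in ad-lib libraries. Of the 6 macrophage and 5 stroma markers 1 each was called lower, and of the 10 lymphocyte and 5 adipocyte markers 0 were called. The part of these cells in the 8 p.m. result was not tested. The part of lymphocyte RNA in the results was not tested beyond the covariate given with them, and in bulk tissue a change in the number of cells of a type and a change in RNA per cell cannot be told apart.

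**Figure D2:**
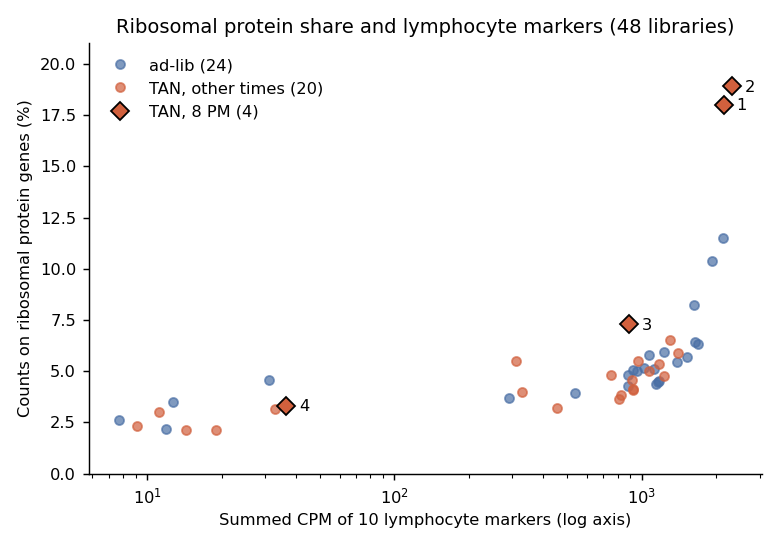
Share of counts on ribosomal protein genes (%) against the summed CPM of 10 lymphocyte markers (log axis) in the 48 libraries, with the 4 TAN libraries of 8 p.m. as numbered diamonds. The 5 shares above 8% belong to libraries with 1623 CPM or more of these markers, and TAN replicate 3, with 889 CPM, has 7.30%.

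The first comparison asked whether TAN feeding changed ribosomal protein expression at any time of day. At 8 p.m., 53 of the 85 genes were higher in TAN mice at an adjusted p under 0.05 and 0 were lower (quasi-likelihood test of edgeR, adjusted after Benjamini and Hochberg over all genes), which is 62.4% of them against 3.76% higher and 7.91% lower of all genes tested. The 53 were 22 of 31 small subunit genes, 26 of 43 large subunit genes, all 3 stalk genes, the paralog Rps27l and Rps19bp1. The median log2 fold change of the 85 genes was 1.27, with quartiles of 1.11 and 1.37, while that of all genes tested was -0.10 and that of 77 mitochondrial ribosomal protein genes was 0.59. Of the 85 genes, 4 were higher with no overlap between the 4 TAN and the 4 ad-lib libraries, Rplp2, Rps2, Rps27l and Rps19bp1, a share near the 4.55% of all genes tested.

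For most core genes the difference at 8 p.m. rested on 2 libraries. Replicates 1 and 2 were the 2 highest of all 48 libraries in 75 of the 85 genes (88.2%), against 8.54% of all genes tested and 1 of 77 mitochondrial ribosomal protein genes. Replicate 3 lay above all 4 ad-lib libraries in 66 of the 85 genes (77.6%, against 26.1% of all genes) and replicate 4 in 6 (7.06%, against 30.8%). Replicate 4 lay below all 4 in 36 (42.4%), a share near the 39.2% of all genes. Without replicates 1 and 2, a fit added once the values were known, the median log2 fold change fell from 1.27 to 0.20, 1 gene (Rps19bp1) was called, and 2 genes had an unadjusted p under 0.05. Of all genes tested in that fit, 4.59% were called higher. Leaving out 1 library of the 8 at a time gave 2 genes without TAN replicate 1, 4 without replicate 2, 63 without replicate 3 and 75 without replicate 4, and 12, 16, 10 and 9 without ad-lib replicates 1, 2, 3 and 4. Of all genes, 1.73%, 2.13%, 3.16% and 4.37% were called higher without TAN replicates 1 to 4. Without ad-lib replicates 1 to 4 the shares were 1.23%, 1.58%, 1.10% and 2.22%. The count also depended on the fit, with 18 genes when low-count genes were kept, 21 with limma voom, 72 with DESeq2 and 0 when the 8 libraries of 8 p.m. were fitted alone, while 77 of the 85 had an unadjusted p under 0.05. For these counts the share of all genes is not reported here.

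**Figure D3:**
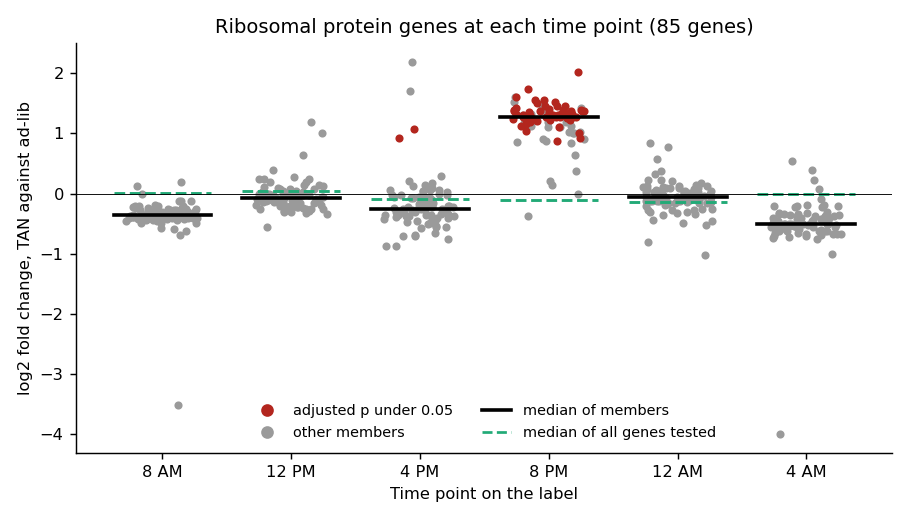
log2 fold change of TAN against ad-lib for the 85 ribosomal protein genes tested at each time point on the label, with genes called at an adjusted p under 0.05 in red, the median of the genes as a solid line and that of all genes tested as a dashed line. At 8 p.m. the median was 1.27 with 53 genes called, and at the other times it lay between -0.51 and -0.06 with 2 genes called in all.

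Among the small subunit genes, Rpsa, the laminin receptor homolog that sits at the exit of the messenger RNA channel, was the most highly counted member, with 8464, 8557, 3519 and 1440 CPM in TAN replicates 1 to 4 at 8 p.m. and 2037, 2038, 2111 and 1403 CPM in ad-lib replicates 1 to 4. The mean was 5495 ± 3584 CPM (SD, n = 4) against 1897 ± 331 (SD, n = 4), which is 1.53 higher on the log2 scale (adjusted p = 0.0225). Replicate 4 fell within the ad-lib range, so that the groups overlap. Rps2, a protein at the entry of that channel, had 2854, 2942, 1550 and 1056 CPM in TAN and 930, 988, 888 and 815 CPM in ad-lib libraries. All 4 TAN libraries lay above all 4 ad-lib libraries here, although replicate 4 did so by a small margin, and the log2 difference was 1.21 ± 0.33 (SE, adjusted p = 0.0183). The call was lost without TAN replicate 1 (adjusted p = 0.0623) or replicate 2 (adjusted p = 0.0637).

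Rps6, the substrate of the S6 kinases downstream of mTORC1, had 4322, 4350, 2052 and 820 CPM in TAN and 1228, 1277, 1317 and 863 CPM in ad-lib libraries, with means of 2886 ± 1748 and 1171 ± 209 CPM (SD, n = 4 each, adjusted p = 0.0425). Replicate 4 was the lowest of the 8 libraries. Rps19, which is mutated in Diamond-Blackfan anaemia, had a log2 fold change of 1.33 (adjusted p = 0.0290), and Rps20, which had one of the lowest p-values for variation over time in TAN mice, had 1.45 (adjusted p = 0.0312). Rps3, a protein with a further role in DNA repair, had 1.33 and was not called (adjusted p = 0.0595), and the ubiquitin fusion Rps27a had 1.46 and was not called either (adjusted p = 0.0913), with 1438 and 1470 CPM in TAN replicates 1 and 2 and 290 and 241 CPM in replicates 3 and 4.

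All 3 stalk genes were called at 8 p.m. Rplp2 had 2415, 2606, 878 and 696 CPM in TAN and 667, 659, 681 and 512 CPM in ad-lib libraries at 8 p.m., with means of 1649 ± 1001 and 630 ± 79.0 CPM (SD, n = 4 each) and a log2 difference of 1.39 ± 0.36 (SE, adjusted p = 0.0136). The TAN libraries do not overlap with the ad-lib libraries, but replicates 3 and 4 lie far nearer to these than to replicates 1 and 2. Without TAN replicate 1 or 2 Rplp2 was not called (adjusted p = 0.0543 and 0.0616). Rplp1 had a log2 fold change of 1.39 (adjusted p = 0.0341) and Rplp0 of 1.37 (adjusted p = 0.0247), and in both genes replicate 4 lay within the ad-lib range.

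Among the large subunit genes, Rpl29 had the lowest adjusted p at 8 p.m. of all 85 genes. It had 977, 925, 444 and 261 CPM in TAN and 281, 271, 277 and 195 CPM in ad-lib libraries, a log2 difference of 1.35 ± 0.30 (SE, adjusted p = 0.00598), and it was called in each of the 8 fits that left out a library of that time. It was not called without replicate number 1 (adjusted p = 0.0809) or 2 (adjusted p = 0.0761) at all times, and without TAN replicates 1 and 2 of 8 p.m. it was at 0.46 (adjusted p = 0.323). Rpl30, named after its values were seen because it had the largest fold change of the family, had 1872, 1924, 894 and 214 CPM in TAN and 296, 438, 270 and 200 CPM in ad-lib libraries, with a log2 fold change of 2.03 (adjusted p = 0.0217). Rpl11, which with Rpl5 restrains Mdm2 when ribosome assembly fails, had a log2 fold change of 1.27 (adjusted p = 0.0220), while Rpl5 had 1.11 (adjusted p = 0.0890). Rpl38, known from selective translation of Hox messages, had 684, 687, 295 and 152 CPM in TAN and 201 to 252 CPM in ad-lib libraries and was not called (adjusted p = 0.0749). Rpl17, which had the lowest p for variation over time in ad-lib mice, had a log2 fold change of 1.11 (adjusted p = 0.255), and with the pseudogene counts added it had 1.45 (adjusted p = 0.0413).

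Several of these genes serve as reference genes in quantitative PCR. At 8 p.m. Rplp0, Rps18, Rpl19 and Rpl32 were called higher in TAN tissue, with log2 fold changes of 1.37, 1.39 (adjusted p = 0.0393), 1.33 (adjusted p = 0.0311) and 1.33 (adjusted p = 0.0341), and Rpl13a and Rps29 were not, with 0.91 (adjusted p = 0.102) and 0.91 (adjusted p = 0.131). Without TAN replicates 1 and 2 the values of Rplp0, Rps18, Rpl19 and Rpl32 were 0.36, 0.07, 0.29 and 0.27, and none was called. At the other 5 time points none of the 6 genes was called.

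Among the paralogs, Rps27l was the one called. Rps27l, which encodes a copy of Rps27 and is a known target of p53, had 126, 142, 154 and 128 CPM in TAN and 66.5, 76.6, 64.7 and 91.4 CPM in ad-lib libraries at 8 p.m. All 4 TAN libraries lay above all ad-lib libraries and close to each other, with means of 137 ± 13.0 and 74.8 ± 12.3 CPM (SD, n = 4 each) and a log2 difference of 0.88 ± 0.27 (SE, adjusted p = 0.0332). With low-count genes kept in the fit it was 0.85 and not called (adjusted p = 0.0551), and of the 8 fits that left out a library it was called in those without ad-lib replicate 4 and TAN replicate 4. In the other 6 the log2 difference was 0.81 to 0.92 (adjusted p = 0.0519 to 0.0903). Rps27 had 2636, 2291, 707 and 279 CPM in TAN and 681, 698, 759 and 489 CPM in ad-lib libraries, so that replicates 3 and 4 lay on both sides of the ad-lib median, and its log2 fold change was 1.17 (adjusted p = 0.176). Without replicates 1 and 2 the log2 fold change was 0.91 for Rps27l (adjusted p = 0.0628) and -0.42 for Rps27 (adjusted p = 0.696).

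None of the other 6 paralogs tested was called at 8 p.m. Rps27rt, a further copy of Rps27 that is named after its values were seen, had 551, 339, 278 and 57.0 CPM in TAN and 82.5 to 134 CPM in ad-lib libraries (log2 fold change 1.61, adjusted p = 0.0580). Rpl22l1 had 123, 148, 27.0 and 34.6 CPM in TAN libraries at 8 p.m. and 39.8 to 51.5 CPM in ad-lib libraries, with replicates 1 and 2 high as in its counterpart Rpl22, which was called (log2 fold change 1.27, adjusted p = 0.0195). Rpl7l1, which acts in ribosome assembly, had 73.8 to 92.8 CPM in TAN and 71.4 to 89.0 CPM in ad-lib libraries (log2 difference 0.14 ± 0.16, SE, adjusted p = 0.618), while Rpl7 was called at 1.10 (adjusted p = 0.0356). Rpl36a was called at 1.38 (adjusted p = 0.0328), Rpl39 at 1.26 (adjusted p = 0.0494) and Rps4x, which lies on the X chromosome, at 1.28 (adjusted p = 0.0314). Rpl10, with means of 2025 and 1011 CPM, was called too (adjusted p = 0.0333), and Rpl3 had 1.03 (adjusted p = 0.0565). Rpl3l, the striated muscle form of Rpl3, was counted 0 times in 24 of the 48 libraries, Rpl36al had at most 48 counts in a library and Rpl39l had 1.02 to 9.01 CPM at 8 p.m., so that nothing can be read from their fold changes.

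Rps19bp1 and Rps27l were the only members called at another time point. At 4 p.m. 2 of the 85 genes (2.35%) were higher and 0 lower, against 6.54% higher and 8.77% lower of all genes tested, a share below the background. Rps19bp1 had 39.1, 23.1, 21.6 and 18.2 CPM in TAN libraries at 4 p.m. and 14.9, 15.4, 11.6 and 12.0 CPM in ad-lib libraries, 0.92 ± 0.23 (SE) higher on the log2 scale (adjusted p = 0.0128). Rps27l had 145, 87.6, 169 and 90.1 CPM in TAN and 70.6, 63.2, 51.0 and 49.3 CPM in ad-lib libraries, 1.07 ± 0.27 (SE) higher on the log2 scale (adjusted p = 0.0139). Both calls were lost without TAN replicate 1 (adjusted p = 0.0862 for Rps19bp1 and 0.0542 for Rps27l) or ad-lib replicate 3 (adjusted p = 0.0549 and 0.0563). In both genes the diets did not overlap, against 12.8% of all genes tested that were higher without overlap, while the family as a whole had a median log2 fold change of -0.25. At that time the lymphocyte markers summed to 32.8, 9.08, 309 and 18.9 CPM in the TAN libraries and 877 to 1522 CPM in the ad-lib libraries, and with the mean log2 CPM of these markers as a covariate the log2 fold changes were 0.94 for Rps27l (adjusted p = 0.210) and 0.72 for Rps19bp1 (adjusted p = 0.260).

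At 8 p.m. Rps19bp1 had 28.4, 22.3, 33.2 and 31.4 CPM in TAN and 13.3, 18.6, 13.8 and 15.0 CPM in ad-lib libraries, 0.92 ± 0.23 (SE) higher on the log2 scale (adjusted p = 0.0109). It was called in each of the 8 fits that left out a library of that time, and also without TAN replicates 1 and 2, but not without replicate number 1 (adjusted p = 0.0542) or 3 (adjusted p = 0.102) at all times. At 12 a.m. it had 30.0, 34.1, 36.4 and 31.3 CPM in TAN and 20.7, 24.1, 18.9 and 13.5 CPM in ad-lib libraries, again with no overlap, but was not called (log2 difference 0.77 ± 0.23, SE, adjusted p = 0.126). Averaged over the 6 time points it was the single member with a TAN effect, 0.37 ± 0.09 (SE) on the log2 scale (adjusted p = 0.0166), where 2.68% of all genes tested were higher and 2.74% lower. When a replicate number was left out at all time points, this mean effect was called in 1 of 4 fits, that without replicate 1, and had an adjusted p of 0.0850, 0.115 and 0.0519 without replicates 2, 3 and 4.

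**Figure D4:**
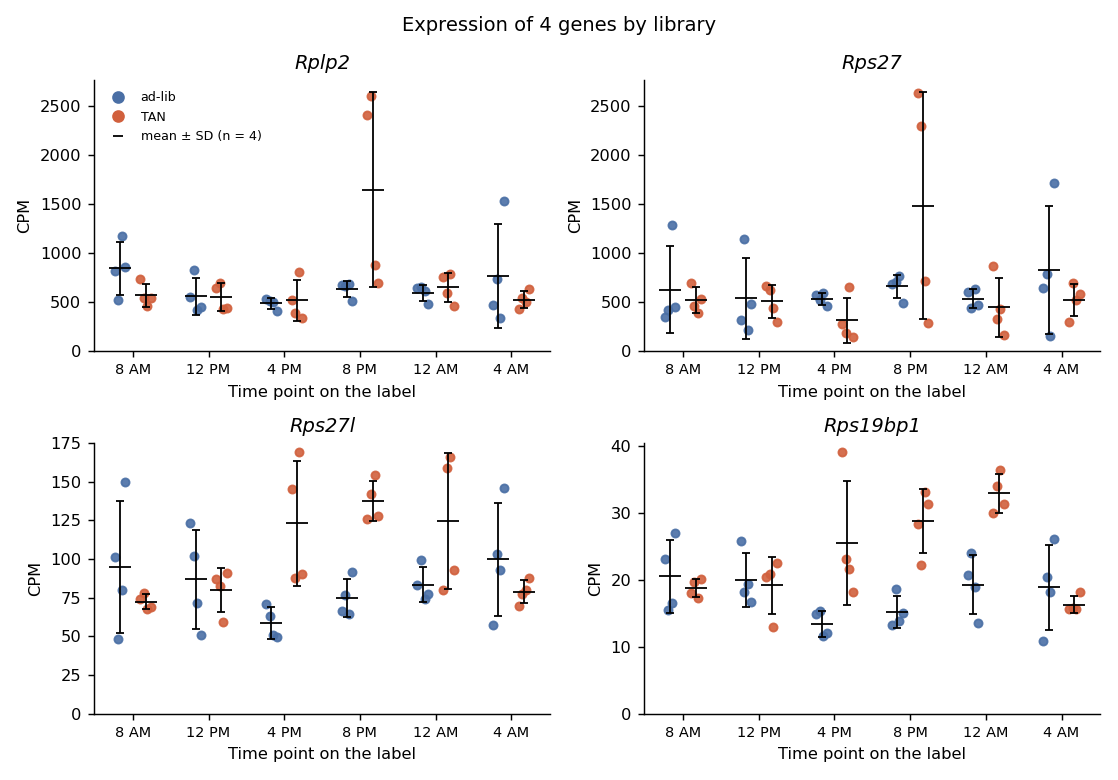
CPM of Rplp2, Rps27, Rps27l and Rps19bp1 by time point on the label, with a point for each library and the mean ± SD of each group (n = 4). At 8 p.m. Rplp2 and Rps27 are high in TAN replicates 1 and 2, at 2291 to 2636 CPM, whereas all 4 TAN libraries of Rps27l (126 to 154 CPM) and of Rps19bp1 (22.3 to 33.2 CPM) lie above the ad-lib libraries.

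At the remaining 4 time points 0 members were called in either direction. Of all genes tested, 0.0100% were called higher and 0.00501% lower at 8 a.m. At 12 p.m. the shares were 0.0851% higher and 0.00501% lower, at 12 a.m. 0.125% and 0.0250%, and at 4 a.m. 0% and 0%. At an unadjusted p under 0.05, edgeR gave 2 members at 12 a.m. and 0 at the other 3, and DESeq2 called 1 member at 12 a.m. and 0 at the other 3. The members had median log2 fold changes of -0.36 at 8 a.m. and -0.51 at 4 a.m., while those of 12 p.m. (-0.07) and 12 a.m. (-0.06) lay near 0. The median was -0.01 at 8 a.m. without ad-lib replicate 3, the library with a share of 10.4%, and 0 at 4 a.m. without ad-lib replicate 4, the library with 11.5%.

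**Figure D5:**
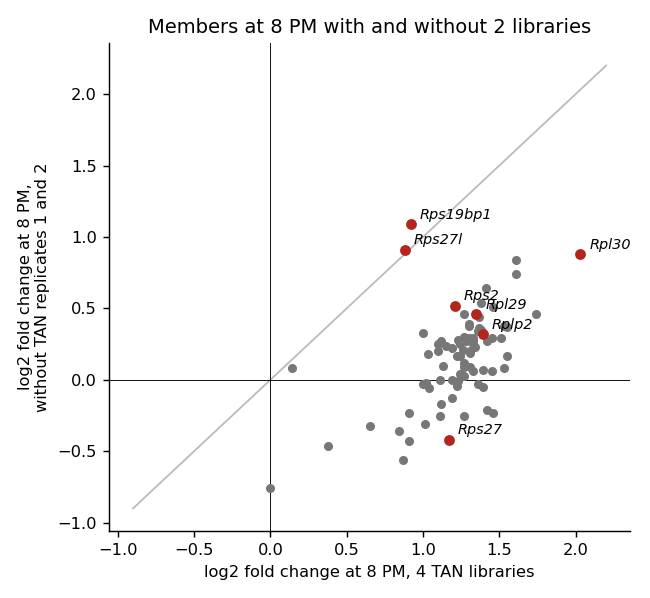
log2 fold change at 8 p.m. of 82 members with all 4 TAN libraries (horizontal) and without TAN replicates 1 and 2 (vertical), with the line of equal values in grey. The 3 low-count paralogs Rpl3l, Rpl36al and Rpl39l are not drawn. Rps27l (0.88 and 0.91) and Rps19bp1 (0.92 and 1.09) lie near the line, and Rplp2 (1.39 and 0.32) and Rps27 (1.17 and -0.42) lie well below it.

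The next comparison asked whether the TAN effect differed between time points. It did for 3 of the 85 genes, 3.53% against 8.98% of all genes tested, namely Rps19bp1 (adjusted p = 0.0195), Rps27l (adjusted p = 0.0219) and Rpl29 (adjusted p = 0.0434). The count was 68 with the lymphocyte covariate, against 6.60% of all genes. It was 28 with DESeq2, and 0 without replicate number 1, 3 or 4 and 2 without number 2 at all times. For these last fits the share of all genes is not reported here. Over time within a diet, 77 of the 85 genes (90.6%) varied in TAN mice and 0 in ad-lib mice, against 23.0% and 0.0551% of all genes tested. At an unadjusted p under 0.05, 1 member varied in ad-lib mice. The lowest p-values in TAN mice were those of Rplp2 (adjusted p = 0.00162), Rps20 (adjusted p = 0.00175) and Rpl29 (adjusted p = 0.00243). Rplp2 averaged 568, 548, 513, 1649, 647 and 523 CPM in TAN mice from 8 a.m. to 4 a.m., so that the 8 p.m. libraries were the ones that differed. Without TAN replicates 1 and 2 of 8 p.m., 3 of the 85 genes varied in TAN mice, Rps27l, Rps19bp1 and Rpl7l1, where 18.4% of all genes did.

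A curve with a period of 24 h (a cosine and sine contrast of the 6 group means) was called in 17 of the 85 members in TAN mice and 0 in ad-lib mice, against 19.8% and 0.0801% of all genes tested, and it differed between the diets in 15 members, 17.6% against 20.2%. In this fit these shares are near the background. In ad-lib mice, 4 members passed at an unadjusted p under 0.05, with the lowest p for Rpl17, Rpl7l1 and Rps27l. The 85 curves in TAN mice had a median peak at hour 20.8 of the labelled day and a median amplitude of 0.480 on the log2 scale, against 0.230 in ad-lib mice. The lowest p-values were those of Rps19bp1 (adjusted p = 0.00408), with an amplitude of 0.44 and a peak at hour 20.3, Rps27l (adjusted p = 0.00448), with an amplitude of 0.52, and Rpl29 (adjusted p = 0.0132). The difference between diets was called for Rps19bp1 (adjusted p = 0.00228) and Rps27l (adjusted p = 0.00240), and both remained called without TAN replicates 1 and 2. With the lymphocyte covariate the curve in TAN mice was called in 76 of the 85 members, against 22.9% of all genes. Its difference between diets was called in 76, against 16.4%.

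Most members followed each other across libraries. As a description over the 48 libraries, with no test, the log2 CPM of a core gene had a median correlation of 0.975 with the family median of the same libraries. The members least like the family were Rpl3l (-0.197), Rpl36al (-0.092), Rpl39l (-0.032), Rps19bp1 (0.162), Rpl24 (0.331), Rps27l (0.360) and Rpl7l1 (0.393), of which Rpl3l, Rpl36al, Rpl39l and Rpl24 had low counts. Lymphocyte markers also varied between these libraries, and their part in the correlations was not tested. With the lymphocyte covariate, 77 of the 85 genes were called higher at 8 p.m. (6.05% of all genes), and the median log2 fold changes of the family were -0.66, -0.59, 0.58, 1.29, 0.52 and -0.55 from 8 a.m. to 4 a.m.

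The genes that work with ribosomal proteins were taken from lists of translation factors, ribosome assembly and its control, with the log2 fold change given for each gene named. Of 22 genes of the translation list, which also holds ribosomal proteins that the name rule does not reach, 13 were higher and 0 lower at 8 p.m., against 3.76% and 7.91% of all genes, with a median log2 fold change of 0.91. They included Fau (1.47, adjusted p = 0.0357), whose product is a ribosomal protein fused to a ubiquitin-like protein, Tpt1 (1.36, adjusted p = 0.0228), a TOP message itself, and the elongation factor gene Eef1b2 (1.34, adjusted p = 0.0369). Eef1a1, the factor that delivers aminoacyl-tRNA, had 0.79 and was not called (adjusted p = 0.103). Eif5a, which resolves stalled ribosomes, was called at 4 p.m. (0.69, adjusted p = 0.0317) and at 8 p.m. (0.84, adjusted p = 0.0143). How far the 8 p.m. calls of the translation, assembly and control lists rested on TAN replicates 1 and 2 was not tested.

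Of 36 assembly genes, 5 were higher and 2 lower at 8 p.m., against 3.76% and 7.91% of all genes, and 1 was higher and 5 lower at 4 p.m., against 6.54% and 8.77%. Those lower at 4 p.m. included Nop58 (-1.24, adjusted p = 0.00724) and Nop56 (-1.41, adjusted p = 0.0137), which hold box C/D guide RNAs, and Tsr1 (-0.94, adjusted p = 0.0104), a factor of 40S maturation. The others were Nolc1 (-1.11, adjusted p = 0.0314) and Polr1b (-0.83, adjusted p = 0.0303). Tsr1 was also lower at 8 p.m. (-0.99, adjusted p = 0.00602), and Polr1d, a subunit of RNA polymerases I and III, was higher at both times (0.61, adjusted p = 0.0464, and 0.70, adjusted p = 0.0317). Of 22 control genes, 1 was higher and 2 lower at 8 p.m., shares near the 3.76% and 7.91% of all genes. Maf1, the repressor of RNA polymerase III, was higher (0.81, adjusted p = 0.0149), and Sp1 (-0.62, adjusted p = 0.0429) and the S6 kinase gene Rps6kb1 (-0.72, adjusted p = 0.0319) were lower. At 4 p.m. 2 control genes were higher and 2 lower, against 6.54% and 8.77% of all genes. Eif4ebp1 (1.13, adjusted p = 0.0446) and Rheb (0.82, adjusted p = 0.0271) were higher, and Sesn1 (-0.73, adjusted p = 0.0154) and Max (-0.47, adjusted p = 0.0396) lower. With the lymphocyte covariate 0% of all genes were called higher at 4 p.m. The higher calls of Eif5a, Polr1d, Eif4ebp1 and Rheb at that time were thus lost. The lower calls are not reported here with that covariate.

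The mitochondrial ribosomal protein genes, whose products translate the mitochondrial genome, had other counts of calls and another order of libraries. Of 77 tested, 54 were higher at 4 p.m., where 2 of the 85 cytosolic genes were, and 25 at 8 p.m., with 0 lower at either time, against 6.54% and 3.76% of all genes higher. With the lymphocyte covariate 0% of all genes were called higher at 4 p.m., so none of these 54 calls remained. The adipocyte markers summed to 20583 to 43545 CPM in TAN and 8672 to 13993 CPM in ad-lib libraries at 4 p.m., and their part in this result was not tested. The TAN effect differed between time points in 47 of 77 mitochondrial genes, against 3 of 85 cytosolic genes and 8.98% of all genes. At 8 p.m. TAN replicate 4 lay above all 4 ad-lib libraries in 77 of the 77 mitochondrial genes and in 6 of the 85 cytosolic genes, against 30.8% of all genes tested. Replicates 1 and 2 both did so in 40 and 81, against 19.0% of all genes.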

How the data were processed

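RNA from inguinal fat was sequenced in 48 libraries, 4 for each diet at each of 6 time points, after poly-A selection. The authors deposited a table of whole-number counts per gene and library, and a table of mean FPKM per group, which has no error. The submitters' processing notes name TopHat 1.3.3, DESeq2 1.20.0, limma and edgeR, and list mm9, mm10 and GRCm38, with no role given for any, and whether counting used strand is not given in the sources used here. Of the 86 members, 84 share their start and end with GENCODE M21 (GRCm38). Of the per-sample columns, 0 were left out.

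Counts were fitted with edgeR 4.0.16 in R 4.3.3 (TMM factors, filterByExpr with a minimum count of 10, robust quasi-likelihood), with all 12 groups in 1 model. A call is an adjusted p under 0.05, with Benjamini-Hochberg adjustment over all 19977 genes tested. p-values and standard errors rest on the spread between libraries within groups, estimated for each gene over all 12 groups together. They do not rest on the spread at the time point compared alone. The library medians of the family (log2 CPM) had a within-group SD of 0.787 at 8 p.m. and 0.449 to 0.693 at the other times. Standard errors were derived from the F statistic, and log2 CPM used a prior count of 2. Alternatives were RLE factors, other count filters, limma 3.58.1 voom, DESeq2 1.42.0, a replicate block, a fit per time point, a covariate (mean log2 CPM of the lymphocyte markers), a stricter call, counts of pseudogenes added to the parent, mitochondrially encoded genes left out, and each library or replicate number left out. The fit was checked on simulated data. With a 24-h curve fitted to 6 times, amplitude and peak rest on few points.

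Genes named were the called members without overlap at a time point (up to 4 with the largest change), 6 reference genes, 10 members with known roles, each paralog pair, Rps19bp1, and the 3 lowest p-values for each test over time. The members and lists were chosen with earlier results of these data known. Some genes of the marker and pathway lists are not reported here by name.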

Additional observations from a re-analysis of the deposited data

Results flagged for a closer look

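In 7 of 72 combinations of a group and a measure (the share of counts on the family and the CPM of 5 genes), a library lay far from the other 3 of its group by Dixon's criterion, which chance alone exceeds in about 1 of 20. In ad-lib mice at 8 a.m. replicate 3 had 10.4% of its counts on the family, and at 12 a.m. replicate 4 had 4.26%. At 8 p.m. ad-lib replicate 4 was low, at 512 CPM of Rplp2 and 195 CPM of Rpl29. In TAN mice, Rps2 had 1079 CPM in replicate 1 at 8 a.m., Rpl29 had 235 CPM in replicate 1 at 4 a.m., and Rps19bp1 had 18.2 CPM in replicate 4 at 4 a.m.

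The TAN effect differed between time points for Rps19bp1 (adjusted p = 0.0195), Rps27l (adjusted p = 0.0219) and Rpl29 (adjusted p = 0.0434), which is 3.53% of members against 8.98% of all genes. The 24-h curve differed between the diets for 15 members, 17.6% against 20.2% of all genes. Neither share is above the background in this fit. With the lymphocyte covariate the counts were 68 and 76 members, against 6.60% and 16.4% of all genes.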

How the results depend on the processing

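With 4 libraries a group, the 8 p.m. count of 53 members called higher rests on TAN replicates 1 and 2. Without both it was 1, where 4.59% of all genes were called higher, and the median log2 fold change was 0.2. It was 18 with no filter on low counts, 21 with limma voom and 0 in a fit of the 8 p.m. libraries alone, with shares of all genes not reported here. Leaving out a library, or a replicate number at all times, gave 0 to 75. Single left-out libraries gave 2 to 75, where 1.10% to 4.37% of all genes were called higher. Without TAN replicates 1 and 2, 60 of the 85 log2 fold changes at 8 p.m. were positive, against 83. Among the genes named, those reversed were Rpl13a (-0.23), Rps29 (-0.43), Rpl38 (-0.03), Rplp1 (-0.05), Rps27a (-0.23), Rpl3l (0.62), Rpl22l1 (-0.56), Rpl36al (-2.04), Rps27 (-0.42), Rpl17 (-0.25) and Rps10 (-0.46), and of the called genes not named, Rpl28 (-0.06) and Rpl37a (-0.01). Rpl24 went from 0 to -0.76. The low-count Rpl36al also gave -2 with voom and ranged from -2.61 to 0.79 over left-out libraries or numbers, and Rpl3l from -7.81 to 1.1.

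At 4 p.m. the members called higher were 0 with the lymphocyte covariate (median 0.58), where 0% of all genes were called higher. They were 1 above a log2 fold change of 1 and 0 to 3 over left-out libraries or numbers. At 12 a.m. they were 1 with DESeq2, 2 at an unadjusted p and 0 to 1 over left-out libraries or numbers (median 0.52 with the covariate), and for the mean effect 0 to 1. The effect differed between time points in 68 members with the covariate, against 6.60% of all genes. It did so in 7 with at least 10 counts in every library, 28 with DESeq2 and 0 to 2 over left-out replicate numbers. Variation over time in TAN mice held for 3 without TAN replicates 1 and 2 and for 0 to 79 over left-out replicate numbers. The 24-h curve in TAN mice was called for 76 with the covariate (22.9% of all genes) and 2 without TAN replicates 1 and 2 (26.1%). It was called for 27 with RLE factors, 30 with at least 10 counts, 10 with voom, 47 with DESeq2 and 0 to 52 over left-out replicate numbers. Its difference between diets was called for 76 with the covariate (16.4% of all genes) and 3 without those replicates (28.8%). That difference was called for 9 with no filter, 4 with voom and 0 to 5 over left-out replicate numbers. For the other fits of the curve the share of all genes is not reported here. Medians over left-out libraries or numbers were -0.62 to 0.05 at 8 a.m., -0.31 to 0.28 at 12 p.m., -0.56 to -0.09 at 4 p.m., 0.96 to 1.57 at 8 p.m., -0.25 to 0.16 at 12 a.m. and -0.76 to 0 at 4 a.m. The causes were not tested. The other alternatives left these counts within 1.5 times.

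Whether the same replicate number in both diets marks paired samples cannot be told from the counts. The correlation of deviations was over 0.1 in 10 of 24 pairs, with a median of -0.0127 and a range of -0.586 to 0.844. With a replicate block, 42 members were called at 8 p.m., the TAN effect differed between time points in 2 (Rps27l and Rps19bp1) and Rpl36al was at -0.09.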
